A study of Mus musculus with 3 samples.

Results

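The mouse miRNA genes Mir500, Mir501, Mir362, Mir188 and Mir532 lie side by side on the X chromosome, and the array carries a probe for each of them under the human name. The members were chosen by probe name: hsa-miR-500, hsa-miR-501, hsa-miR-362, hsa-miR-532, hsa-miR-502 and hsa-miR-660, which gave 6 of the 447 miRNA-named probes on the array, each printed as 4 spots. Of these 6, 4 have a mouse gene of that name, and miR-502 and miR-660 have a human name with no such mouse entry in the table used here. The neighbouring miR-188 probe was added for the same locus, which makes 7 probes. The miR-500 probe was picked with its values on these arrays already known, so its levels and differences are a description.

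The arrays profiled mouse T-cell acute lymphoblastic leukaemia on the Balb/c background, and all cells were CD4+CD8+ (double-positive) T cells. The groups were tumor cells that express ICN1, non-malignant cells that express ICN1, and normal thymocytes as the control, with 1 sample and 1 array each. ICN1 is the intracellular part of NOTCH1, which signals without ligand and drives this leukaemia. The sources used here do not give how ICN1 was delivered, the age of the mice or the number of animals behind a sample. Each sample carried the dye Hy3, and a pool of equal amounts of the 3 RNAs carried Hy5 on every array. Differences between groups therefore have no replicate check, and the design allows neither a test nor a p-value. The error given is that of the 4 spots, which share 1 RNA.

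A miRNA is cut from a hairpin precursor, and either arm of the hairpin can give the mature RNA of about the length of the sequences printed here. It guides Argonaute proteins to messenger RNAs, mainly through pairing of its seed, bases 2 to 8. Genes of a miRNA cluster are often cut from a shared primary transcript. All 5 hairpins of this locus are on the minus strand of chromosome X in RefSeq's GRCm38.p6 annotation and span 10815 bases, from the start of Mir500 at 7237683 to the end of Mir532 at 7248497. They lie inside Clcn5, which encodes an endosomal chloride and proton exchanger and runs on the same strand. RefSeq lists 2 starts for Clcn5, 1 upstream of the hairpins and 1 downstream of them. Whether the hairpins are intronic was not examined, since no exon table was used.

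The Mir500 hairpin is shown whole because its probe carries the result, with the 5p arm and then the 3p arm in capitals (GRCm38.p6, chromosome X, 7237683 to 7237774, minus strand, RefSeq).
Mir500: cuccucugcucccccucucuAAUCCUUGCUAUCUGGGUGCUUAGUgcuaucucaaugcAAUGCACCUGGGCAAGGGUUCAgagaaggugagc
The mature arms listed for the locus follow, also from RefSeq, with the seed in capitals, so that miR-500 can be set against its neighbours. For Mir532 only the 3p arm was listed in the source used here, so a 5p arm of it is not shown.
mmu-miR-500-3p: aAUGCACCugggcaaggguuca
mmu-miR-501-3p: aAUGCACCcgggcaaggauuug
mmu-miR-362-3p: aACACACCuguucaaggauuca
mmu-miR-500-5p: aAUCCUUGcuaucugggugcuuagu
mmu-miR-362-5p: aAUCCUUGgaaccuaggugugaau
mmu-miR-501-5p: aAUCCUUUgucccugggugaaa
mmu-miR-188-5p: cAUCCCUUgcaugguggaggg
mmu-miR-188-3p: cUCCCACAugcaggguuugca
mmu-miR-532-3p: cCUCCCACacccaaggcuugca

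The arms fall into groups by seed. miR-500-3p and miR-501-3p share AUGCACC, and no other of the 1738 mature entries in the table has it. They are identical at 18 of 22 positions, and the differences, counted from 1 at the 5′ end with the miR-500-3p base first, are U9C, G18A, C21U and A22G. miR-500-5p and miR-362-5p share the seed AUCCUUG, again with no other entry, but match at only 16 of 24 positions. The miR-501-5p seed AUCCUUU differs from that of miR-500-5p at G8U. Outside the locus, the seed ACACACC of miR-362-3p is also that of miR-329-3p, and the seed AUCCCUU of miR-188-5p that of miR-7061-3p. The files do not say which arm a probe targets or give the probe's own sequence, so a value below belongs to the named probe and not to one arm. The array holds 99 mismatch probes, none of them for a probe of this cluster, so the specificity of these 7 probes could not be read from the arrays.

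The miR-500 probe was well above background in every group. Its Hy3 signal mean in the 4 spots was 233.5, 219.8, 217.7 and 207.2 intensity units in ICN1 tumor cells. In non-malignant ICN1 cells it was 3751, 4107, 3945 and 3704 units, and in control thymocytes it was 1006, 1010, 962.5 and 925.2 units. In these units, which are not normalized between arrays, non-malignant ICN1 cells were high, control thymocytes in between and tumor cells low. The means were 219.6 ± 10.8, 3877 ± 186 and 976 ± 40.2 units in these groups (SD over 4 spots), over local backgrounds of 69.0, 80.8 and 75.5 units. All 12 spots passed the detection limit, set 2 background SDs above the local background median; even the dimmest tumor spot lay 13.6 background SDs above its background.

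**Figure D1:**
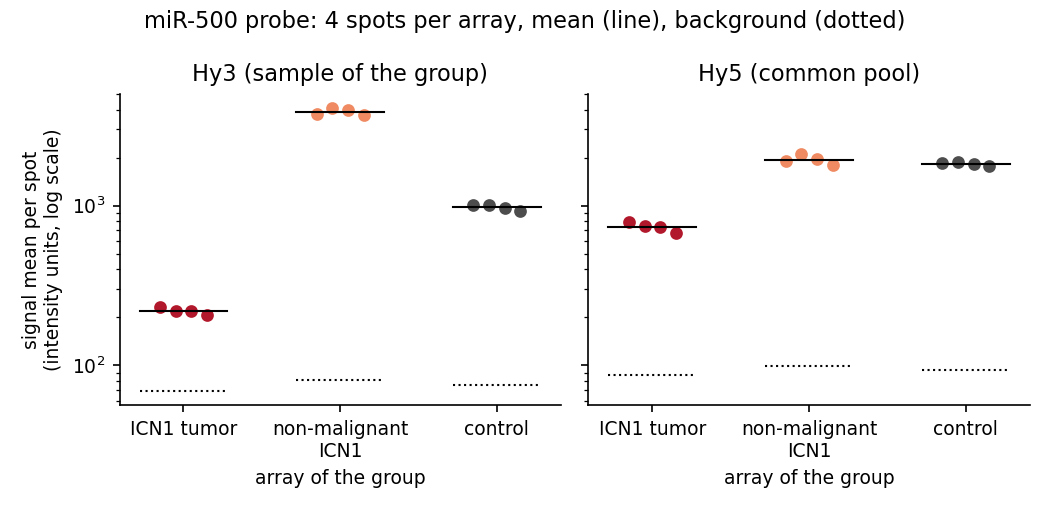
Signal mean of each of the 4 miR-500 spots on the array of ICN1 tumor, non-malignant ICN1 and control cells, on a log axis in intensity units, for the sample dye Hy3 (left) and the pool dye Hy5 (right); solid lines are means of 4 spots and dotted lines the local background. The Hy3 means were 219.6, 3877 and 976 units and the Hy5 means 736.1, 1944 and 1833 units in that order of groups.

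The pool gave a second reading of the same probe, from RNA that was the same on all arrays. The Hy5 signal mean at the miR-500 spots was 785.4, 749.3, 737.8 and 672.0 units on the tumor array. It was 1916, 2102, 1953 and 1804 units on the non-malignant array and 1842, 1884, 1826 and 1781 units on the control array. The pool signal was thus lower on the tumor array than on the other two, although the labels describe the same pool. Centred on each array's median over detected mouse miRNA probes, it was lower on the tumor array by -1.13 ± 0.050 log2 units against the control array and by -1.28 ± 0.066 against the non-malignant array. The same difference between the non-malignant and the control array was 0.15 ± 0.048. Over all detected mouse miRNA probes the SD of the pool difference was 0.34, 0.39 and 0.16 in these comparisons, and miR-500 had the 3rd largest of 176, the 3rd largest of 172 and the 29th largest of 166 by size. The difference of the pool therefore enters every ratio of miR-500 on the tumor array, and differences with Hy3 alone are given beside the ratios below. The cause of the lower pool signal was not tested, nor was whether the Hy3 signal of the same spots was lowered with it.

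As a ratio of sample to pool, miR-500 was at -1.53 ± 0.0089 log2 units in tumor cells, 1.20 ± 0.016 in the non-malignant ICN1 cells and -0.80 ± 0.017 in control thymocytes (SE over 4 spots, after background correction and loess normalization within each array). Non-malignant ICN1 cells were the highest of the groups on this scale too, and tumor cells the lowest.

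Non-malignant ICN1 cells had 4.0-fold more miR-500 than control thymocytes, a log2 difference of 2.0 ± 0.023. This was the highest difference of the 166 probes with a mouse gene that were detected on at least 1 of these arrays. The Hy3 channel alone, which leaves the pool out, gave 2.07 ± 0.045, or 4.20-fold. A probe counted as different from 2-fold upwards, which 6.02% of the 166 probes met in either direction (4.22% higher and 1.81% lower). With Hy3 alone 3.01% were at least 2-fold higher and 1.2% lower. Among the cluster probes, 3 were detected in this comparison and miR-500 was the 1 that met it. Of these 3, miR-502 has no mouse gene of its name and is not among the 166 probes. The other detected probes, miR-532 and miR-502, lay near the level of negative controls, where a difference of this size might not be seen. That contrast was in view when the probe was chosen, so nothing is read from the share.

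ICN1 tumor cells had less miR-500 than non-malignant ICN1 cells, with a log2 difference of -2.73 ± 0.019 as a ratio and -3.81 ± 0.052 with Hy3 alone, or 6.63-fold and 14.0-fold. The pool at these spots, the same RNA on both arrays, also differed by -1.28 log2 units, so the 14.0-fold cannot be taken as a sample difference alone. The ratio difference was the 2nd lowest of 172 probes. In this comparison 10.5% of the probes met the 2-fold rule in either direction (9.88% lower and 0.581% higher), and with Hy3 alone 11% were lower and 0.0% higher. Of 4 detected cluster probes, miR-500 was again the 1 at 2-fold. The 4 include miR-502 and miR-660, which have no mouse gene of their name and are not among the 172 probes.

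Between ICN1 tumor cells and control thymocytes the call depended on the dye. The ratio differed by -0.73 ± 0.019, or 1.66-fold lower in tumor cells, which is under 2-fold and stood 37th from the lowest of 176 probes. With Hy3 alone the difference was -1.74 ± 0.048, or 3.35-fold lower; the pool at these spots was also lower on the tumor array. By the ratio, 15.3% of the probes met the 2-fold rule in either direction (14.8% lower and 0.568% higher), and none of the 4 detected cluster probes did. These 4 again include miR-502 and miR-660, which are not among the 176 probes. By Hy3 alone 15.9% of the probes were at least 2-fold lower, miR-500 among them, and 0.0% higher. The 3 comparisons share arrays in pairs, so their values are not independent of each other.

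**Figure D2:**
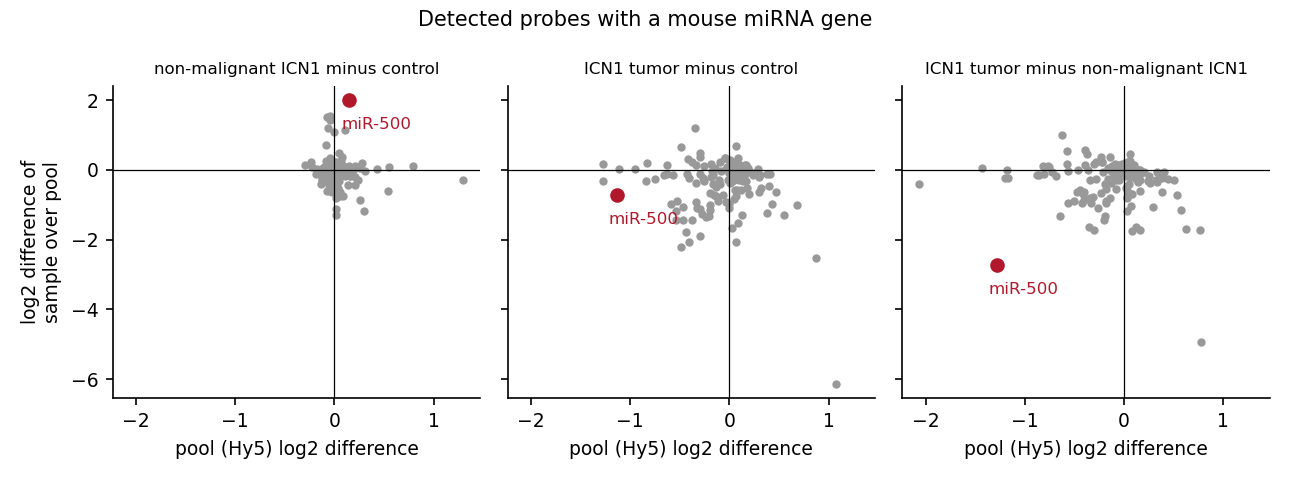
Each grey point is a detected probe with a mouse miRNA gene; the x axis is the log2 difference of the pool (Hy5) signal between the arrays named above each panel and the y axis the log2 difference of sample over pool. miR-500 (red) lies at 0.15 and 2.0 for non-malignant ICN1 minus control, at -1.13 and -0.73 for tumor minus control, and at -1.28 and -2.73 for tumor minus non-malignant ICN1.

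Of the neighbouring genes, Mir501, Mir362 and Mir188 gave no signal above the detection limit. The miR-501 probe, whose 3p arm shares the miR-500-3p seed, had a Hy3 signal mean of 73.7 ± 0.75, 80.8 ± 1.18 and 77.1 ± 1.46 units in tumor, non-malignant ICN1 and control cells. The local background was 67.8, 78.5 and 74.5 units, and none of the 4 spots on any array passed the detection limit. miR-501 was thus at background in all groups, and no fold is read from it.

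The miR-362 probe, whose 5p arm shares the seed of miR-500-5p, read 67.1 ± 1.06, 70.6 ± 0.83 and 69.1 ± 0.80 units in tumor, non-malignant ICN1 and control cells, below its local background of 70.3, 81.0 and 77.0 units. The miR-188 probe, for the next gene of the locus, read 74.4 ± 5.04, 79.8 ± 2.44 and 75.9 ± 1.04 units in these groups against backgrounds of 68.3, 79.5 and 75.0 units. None of the spots of miR-362 or miR-188 passed the limit, in either dye, so a level under it cannot be told from no signal at this brightness.

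The miR-532 probe was the other member with a mouse gene that counted as detected. Its Hy3 signal mean was 98.95 ± 0.90 units in tumor cells, 112.6 ± 2.99 in the non-malignant ICN1 cells and 113.7 ± 1.54 in control thymocytes, at 1.5, 1.46 and 1.55 times the background. All 4 spots passed on each array in Hy3, and none in Hy5. The ratio differed by -0.050 ± 0.029 between non-malignant ICN1 and control cells, by -0.13 ± 0.015 between tumor and control cells and by -0.078 ± 0.032 between tumor and non-malignant ICN1 cells. With Hy3 alone the differences were -0.023 ± 0.013, 0.22 ± 0.019 and 0.25 ± 0.019 in the same comparisons, so the sign of both tumor comparisons turned with the scale. With the pool at background, neither scale settles whether miR-532 differed between the groups.

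The miR-502 and miR-660 probes have no mouse gene of their name. Whether either probe matches a mouse sequence of another name, such as one of this locus, could not be checked without the probe sequences. Their values are therefore not a reading of probes without a target. miR-502 gave 111.9 ± 2.43, 118.4 ± 6.98 and 123.0 ± 5.49 units in tumor, non-malignant ICN1 and control cells, with 4, 2 and 4 of 4 spots above the limit. Its ratio differed by -0.091 ± 0.064, 0.00027 ± 0.058 and 0.091 ± 0.065 for non-malignant ICN1 against control, tumor against control and tumor against non-malignant ICN1. miR-660 gave 89.55 ± 0.82, 96.2 ± 2.30 and 92.85 ± 1.05 units, and its 4 spots passed on the tumor array alone. They lay 2.19 to 2.50 background SDs above background there, little over the limit of 2. Over the array, 53.4%, 47.7% and 50% of the 174 miRNA-named probes with no mouse gene of that name passed the limit on the tumor, non-malignant and control arrays, beside 61.4%, 56.3% and 60.4% of the probes with one.

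The brightest of the 8 negative control probes read 108.2, 118.9 and 120.5 units on the tumor, non-malignant and control arrays. miR-532 lay under that level on each array and miR-502 within 4 units of it, while miR-500 was above it throughout. Of the 8 negative control probes, 4, 3 and 3 passed the detection limit on these arrays. Passing the limit at the brightness of miR-532, miR-502 and miR-660 therefore did not separate these probes from negative controls.

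**Figure D3:**
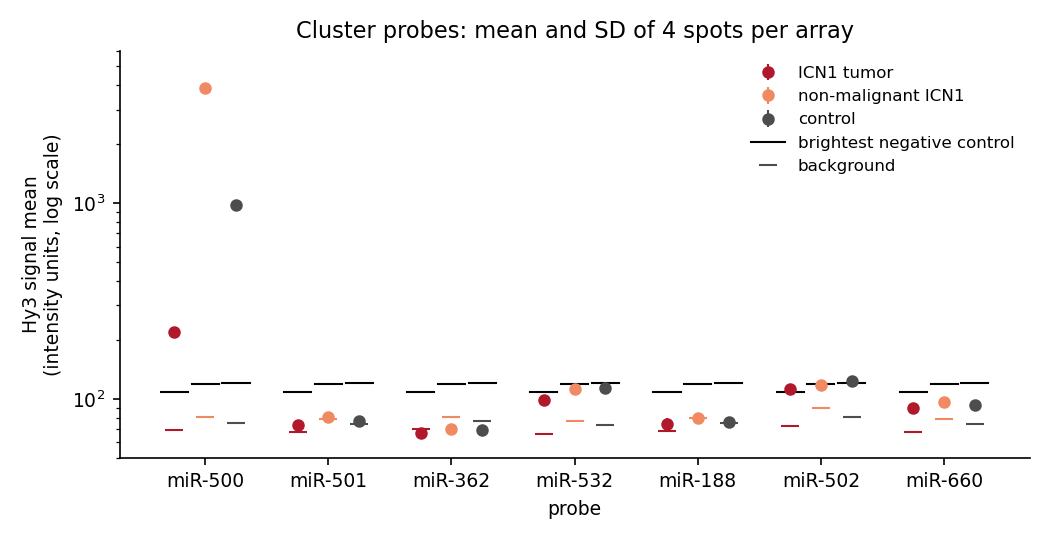
Hy3 signal mean in intensity units (log axis) of the 7 cluster probes in ICN1 tumor, non-malignant ICN1 and control cells; points are means with the SD of 4 spots, short coloured dashes the local background and black lines the brightest of 8 negative control probes. The miR-500 points lie above the brightest negative control on every array, and those of the other 6 lie between 67.1 and 123.0 units.

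The cluster probes detected beside miR-500 had median ratio differences of -0.070 for non-malignant ICN1 against control (2 probes), -0.037 for tumor against control and -0.078 for tumor against non-malignant ICN1 (3 probes each). Over all detected probes with a mouse gene these medians were -0.023, -0.11 and -0.082. Of the cluster probes in the medians above, only miR-532 has a mouse gene of its name, and miR-502 and miR-660 do not. With Hy3 alone the cluster medians were -0.083, 0.30 and 0.35, so those of both tumor comparisons changed sign. Probes at background gave values of this size too on that scale. The undetected miR-501, miR-362 and miR-188 read 0.35, 0.36 and 0.38 for tumor against control. For tumor against non-malignant ICN1 they read 0.32, 0.40 and 0.36. Over all detected probes with a mouse gene the Hy3 medians were -0.064, 0.054 and 0.11. Since the pool was at background for these probes and their Hy3 signal was near that of negative controls, the arrays do not show whether the neighbours of miR-500 differed between the groups. miR-329, a miRNA of another cluster that shares the miR-362-3p seed, had 70.2, 77.9 and 75.8 Hy3 units in tumor, non-malignant ICN1 and control cells and none of its spots passed the limit.

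Detected probes whose mouse genes all lie on the X chromosome, outside this locus, numbered 12 in each comparison. Their median ratio difference was -0.090 for non-malignant ICN1 against control, -0.040 for tumor against control and -0.025 for tumor against non-malignant ICN1. In the first, 1 of the 12 was at least 2-fold higher and none lower; in the second none reached 2-fold; in the third 1 was at least 2-fold lower. The 1 probe was miR-223 in both cases, a miRNA of myeloid cells.

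The pattern of miR-500 over the arrays was compared with that of 175 other probes with a mouse miRNA gene that were detected on at least 1 array and had usable spots on all 3, by the Euclidean distance between log2 ratios centred on each probe's mean. With 3 arrays this likeness rests on 3 values per probe and is a description. The nearest were miR-449b (distance 0.68) and miR-449 (0.70), which share their seed with the p53-induced miR-34 family. They were followed by miR-223 (0.93), the erythroid miR-144 (0.95) and miR-9* (1.12), a strand of the neural miRNA gene miR-9; the median distance of all probes was 1.97. All 5 were highest in non-malignant ICN1 cells, as miR-500 was, which follows in part from choosing them by likeness. Unlike miR-500, miR-9* was lowest in control thymocytes (-0.88, against -0.55 in tumor cells). In tumor cells miR-9*, miR-449b and miR-144 read 81.1, 98.6 and 100.8 Hy3 units, under the brightest negative control at 108.2. In control thymocytes miR-9* was also under it (79.9 against 120.5 units). miR-449 and miR-223 lay above it on every array.

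The pool signal of these probes is given beside their own. miR-449 had a Hy3 signal mean of 120.6 units in tumor cells, 378.5 in the non-malignant ICN1 cells and 165.1 in control thymocytes. Its ratio differed by 1.53 between non-malignant ICN1 and control cells and by -0.20 between tumor and control cells, and its pool signal by -0.044 and 0.11. miR-449b read 98.6, 306.4 and 141.6 Hy3 units in tumor, non-malignant ICN1 and control cells. The pool difference between the tumor and control arrays was 0.032 for miR-449b, -0.27 for miR-223, 0.68 for miR-144 and -0.043 for miR-9*, against -1.13 for miR-500.

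**Figure D4:**
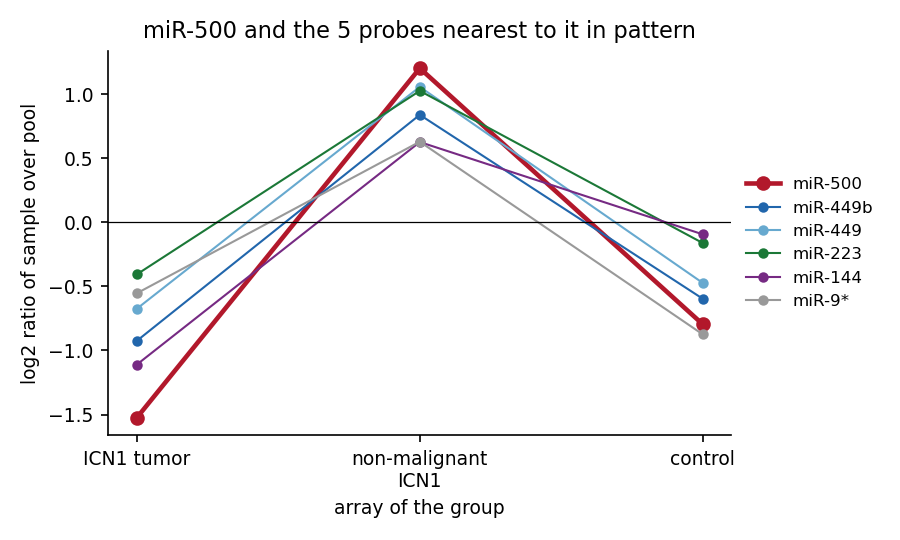
Log2 ratio of sample over pool on the arrays of ICN1 tumor, non-malignant ICN1 and control cells for miR-500 and the 5 probes nearest to it in pattern; each point is the mean of the probe's spots. All 6 lines peak in non-malignant ICN1 cells; miR-500 runs through -1.53, 1.20 and -0.80.

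Markers of the cells the samples could hold were read on the same arrays, as Hy3 signal above background. The lymphoid list was detected at 4 of 5 probes in tumor cells, where miR-150 did not pass the limit, and at 5 of 5 in both other groups. Its summed signals were 7634, 17099 and 21825 units in tumor, non-malignant ICN1 and control cells. Most of each sum came from miR-142-3p (5988, 10024 and 12456 units) and miR-142-5p (1469, 6819 and 8916 units). In the same order miR-181a read 43.8, 80.9 and 174.8 units, miR-181b 114.9, 150.3 and 234.4, and miR-150 18.7, 24.8 and 44.4. miR-223, the 1 myeloid marker, read 65.1, 366.5 and 164.3 units in these groups, the same order as miR-500. The 3 erythroid markers, all detected in each group, summed to 642.3, 11753 and 24002 units, of which miR-451 made up 505.5, 11409 and 23628 units. miR-144 alone read 31.6, 147.2 and 89.1 units in tumor, non-malignant ICN1 and control cells, which is also the order of miR-500. Its tumor signal, 100.8 units with background included, was under the brightest negative control at 108.2. miR-486 read 105.2, 197.1 and 284.8 units in these groups, and like miR-451 it was highest in control thymocytes. Stromal, epithelial and muscle or liver lists had 2 to 3 of 4 probes detected, with sums of 1502 to 2220, 145.5 to 154.9 and 123.1 to 158.3 units. Nearly all of the stromal sum came from miR-214, with 1475, 1772 and 2177 units in tumor, non-malignant ICN1 and control cells. The stromal miR-143 and miR-199a and the epithelial miR-205 were not detected on any array. Of the 8 negative control probes, 4, 3 and 3 passed the same limit on the tumor, non-malignant and control arrays. Passing it therefore does not show that a dim marker such as miR-150 was present. The part of other cells in the miR-500 result was not tested, and fewer cells of a type cannot be told apart from less RNA per cell.

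The miR-500 differences were recomputed under 11 other ways of processing. Non-malignant ICN1 against control ranged from 1.91 to 2.23 and tumor against non-malignant ICN1 from -3.81 to -2.46, and all 11 values of both were at least 2-fold. Tumor against control ranged from -1.74 to -0.23 and was at least 2-fold in 1 of 11, the Hy3 channel alone.

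**Figure D5:**
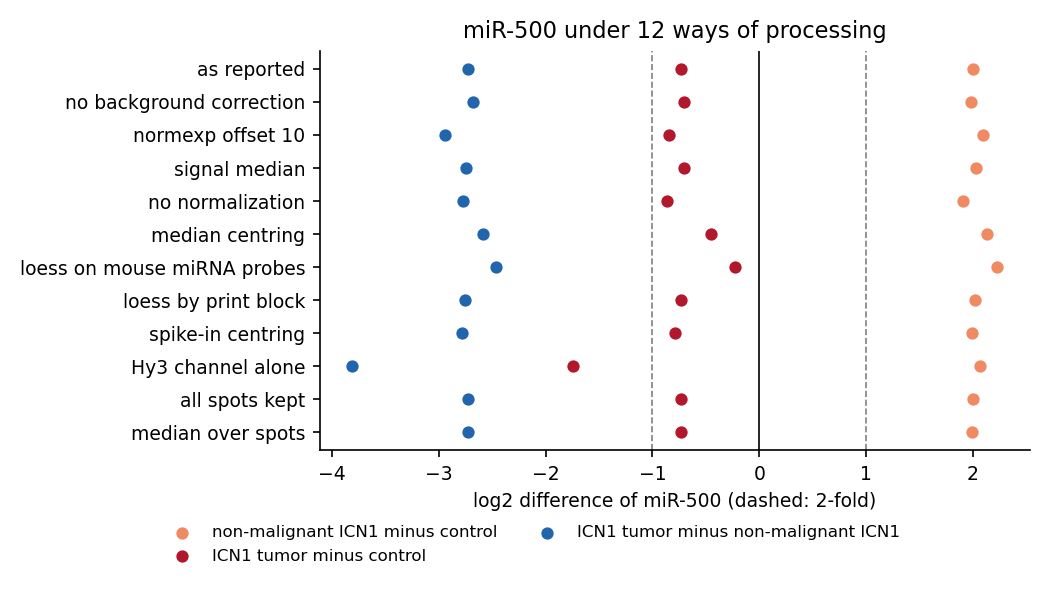
Log2 difference of miR-500 (x axis) under 12 ways of processing (rows), for non-malignant ICN1 minus control, tumor minus control and tumor minus non-malignant ICN1; dashed lines mark 2-fold. The first stays between 1.91 and 2.23, while tumor minus control reaches -1.74 with Hy3 alone and -0.23 when loess used mouse miRNA probes.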

How the data were processed

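The deposited scanner tables give, per spot and dye, the mean and median signal and the local background with its SD as a linear intensity, not normalized, and a quality flag, a score, per the file headers. RNA was extracted with Trizol and labelled with Hy3 (sample) or Hy5 (pool), per the labels' protocols; the sources used here do not name the image analysis software. A table of the authors' processed values was not used, because 1 of its 345 row numbers occurs in the scanner tables. No column was left unassigned to a sample.

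Spots with flag 3 were left out (51, 125 and 72 of 6720 on the tumor, non-malignant and control arrays; none at a cluster probe). Background was corrected by normexp (offset 50) on signal mean and background median. Then log2(Hy3/Hy5) was normalized by loess within each array (span 0.3), with control and mismatch spots at weight 0, in limma 3.58.1 and R 4.3.3, and averaged over spots. A probe was detected where at least 1 of every 2 usable spots exceeded the background median plus 2 background SDs in Hy3. For Hy3 or Hy5 alone, log2 signals were centred on each array's median over detected mouse miRNA probes. Human-named probes were matched by name to RefSeq mouse genes (273 of 447). Tables were made with pandas 2.3.3 and numpy 2.4.6 in Python 3.11.15, and figures with matplotlib 3.10.9. The procedure was tested on simulated arrays with the same pool level on each, where known differences were given to brighter probes of the non-malignant array. A lower pool signal at some probes, as for miR-500 on the tumor array, was not simulated, nor were differences at dim probes.

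All cluster probes are named, with the 5 probes nearest to miR-500 in pattern. Members, lists and settings were chosen with earlier results of these data known. The number of arrays limits the precision.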

Additional observations from a re-analysis of the deposited data

How the results depend on the processing

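Differences were recomputed without background correction, with normexp offset 10, signal medians, no normalization, median centring, loess on mouse miRNA probes, loess by print block, spike-in centring, Hy3 alone, all spots kept, and the median over spots. A value was held to have moved where it changed by more than the SD of the pool difference between the same arrays. With loess on mouse miRNA probes miR-500 moved to 2.23 for non-malignant ICN1 against control and to -0.23 for tumor against control. With Hy3 alone it moved to -1.74 for tumor against control and to -3.81 for tumor against non-malignant ICN1, and the count of cluster probes at 2-fold was 1 for tumor against control, in place of 0. The other cluster counts stayed the same under these settings, at a detection limit of 3 background SDs and with no filter on dim probes. No miR-500 value changed sign. The 88 values of the other detected cluster probes ran from -0.26 to 0.44, and 5 moved, at signals near the floor. miR-532 and miR-660 turned positive for tumor against control with median centring (0.28 and 0.36) and with Hy3 alone (0.22 and 0.37), and miR-660 for tumor against non-malignant ICN1 with Hy3 alone (0.35). The median of all detected probes with a mouse gene was 0.054 with Hy3 alone and -0.11 as a ratio for tumor against control. For tumor against non-malignant ICN1 it was 0.11 and -0.082. At 3 background SDs miR-660 was no longer detected in tumor cells, which left 3 cluster probes on every array. No paired analysis was possible because each group has 1 sample. Signals near background limit what can be said of the other 6 cluster probes.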

Other observations

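In the pool channel, 2 detected probes had a lower log2 difference than miR-500 (-1.13) between the tumor and control arrays. They were miR-381 (-1.28) and miR-346 (-1.27), named after their values were seen.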
